A study of Homo sapiens with 35 samples.

Results

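The genes of the mitochondrial ribosomal proteins were followed in RPMI-8226 cells, a multiple myeloma cell line, through 10 d of recovery from a pulse of carfilzomib. Their 77 protein-coding entries were chosen by symbol alone, MRPL or MRPS followed by a number, with a minimum of 50 counts summed over the 35 libraries. All 77 entries that match the pattern passed this minimum, 48 of the large subunit (MRPL) and 29 of the small subunit (MRPS), out of 17999 protein-coding entries with a count. The libraries were RNA-sequencing libraries of 5 subcultures on each of days 0, 1, 2, 4, 6, 8 and 10. Carfilzomib, a proteasome inhibitor, was given at 750 nM for 1 h and washed out. According to the methods of the study, day 0 cells were collected before the inhibitor, although their label carries the same treatment as the other days, and all subcultures were split from 1 expanded culture. The p-values therefore measure the spread between subcultures of a single culture.

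Mitochondrial ribosomes translate the few proteins that the mitochondrial genome encodes, all of them parts of the respiratory chain and ATP synthase. Their rRNAs are made inside the organelle, whereas every protein subunit is encoded in the nucleus, translated by cytosolic ribosomes and imported. Some subunits have a bacterial counterpart, and others were added to the mitochondrial ribosome in the course of evolution. The symbols do not follow the structure in every case, since MRPS18A and MRPS30 sit in the large subunit, and MRPS36 is a subunit of the 2-oxoglutarate dehydrogenase complex. Carfilzomib blocks the chymotrypsin-like site of the proteasome, on which plasma cells depend heavily because they secrete so much protein.

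Library depth ran from 6519392 to 10962890 counts. The plasma cell markers SDC1, TNFRSF17, PRDM1, IRF4, XBP1 and CD38 had counts in all 35 libraries, with medians of 58.4 to 427 CPM, counts scaled to a fixed library total. Of 6 markers of other cells, MS4A1 was the most abundant, with a median of 9.32 CPM. PAX5, MS4A1 and CD3E also had counts in all 35 libraries, so the lists differ in level and not in presence alone. HBB was at 0 in 32 libraries, CD14 in 7 and COL1A1 in 6. CPM are relative values: a change in the total RNA of a cell and a change in the number of cells with a transcript cannot be told apart in these libraries.

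Most mitochondrial ribosomal protein transcripts were higher 1 d after the pulse and most of that rise was gone by day 4. Together they took 0.323% ± 0.00809 of the protein-coding counts on day 0 (SD, n = 5), 0.485% ± 0.0156 on day 1, 0.441% ± 0.00732 on day 2 and 0.365% ± 0.00395 on day 4. On days 6, 8 and 10 the mean share was between 0.338% and 0.351%. Every library of days 1, 2, 4 and 10 lay above the highest day 0 library, which held 0.329%, so this unscaled share had not fully returned. On days 6 and 8 the lowest libraries held 0.325% and 0.324%, within the day 0 range. With scaling factors the summed CPM of day 10 was 1.016 of day 0 for the large and 1.067 for the small subunit, so the day 10 excess depended in part on the scaling. The highest of the 7 daily means fell on day 1 for 53 of the 77 members and on day 2 for 16. The lowest fell on day 6 for 28 members and on day 0 for 26.

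On day 1 the medians of the large and the small subunit differed by less than the spread between libraries. For each library the median over the members of a subunit was taken of the difference from the day 0 mean, on the log2 scale of CPM with a prior count of 2. On day 1 the large subunit median was 0.41, 0.46, 0.56, 0.59 and 0.66 in the 5 libraries, with a mean of 0.54 ± 0.10 (SD). The small subunit median was 0.44, 0.46, 0.53, 0.56 and 0.58, with a mean of 0.51 ± 0.062. The median over all 17999 entries was -0.040 ± 0.019 on that day. Within a library, the large subunit exceeded the small by 0.022 ± 0.089 on day 1, with 2 libraries above 0 and 3 below. With means over the members in place of medians this difference was 0.14, and with all transcript classes of a gene summed it was -0.074, so its size and sign depended on the measure. On day 2 the means were 0.36 ± 0.067 and 0.30 ± 0.040, and their difference was 0.061 ± 0.055. From day 4 on every mean of either subunit was between -0.064 and 0.067. On day 6 the large subunit stood 0.074 ± 0.078 below the small, and on day 10 it stood below by 0.053 ± 0.045, each time in 4 of 5 libraries. On day 0 itself the difference was -0.030 ± 0.036 and negative in all 5. These subunit medians are a description and carry no test.

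**Figure D1:**
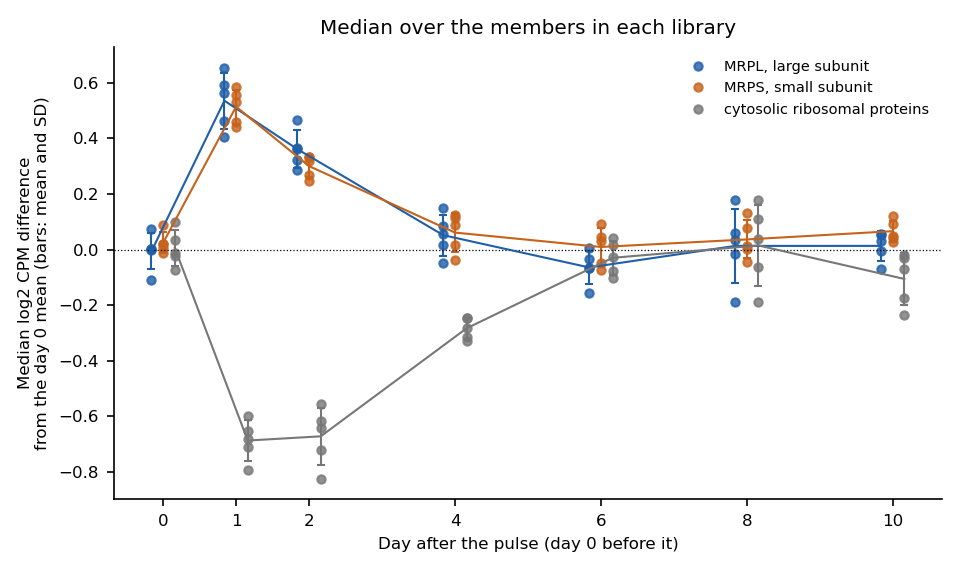
Median over the members of the difference in log2 CPM from the day 0 mean (y axis) by day (x axis), with 1 point per library, lines through the mean of each day and bars for the SD (n = 5). The MRPL and MRPS points overlap on every day and peak on day 1 with means of 0.54 and 0.51, while the cytosolic ribosomal proteins stand at -0.69 on day 1 and -0.67 on day 2.

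The cytosolic ribosomal proteins, which build the ribosomes of the cytoplasm, went the other way. Of their 89 entries, 83 were lower and 2 higher on day 1, 82 lower and 3 higher on day 2, and 70 lower and 0 higher on day 4, where 27.3%, 24.4% and 20.1% of all entries were lower. Their summed CPM fell from 121500 ± 6138 on day 0 to 73160 ± 3346 on day 1 (SD, n = 5), 0.602 of the starting value. The summed CPM of the large mitochondrial subunit rose from 1918 ± 84.6 to 2888 ± 132, and that of the small subunit from 1482 ± 37.5 to 1828 ± 67.5. On days 6, 8 and 10 the cytosolic list held 4, 3 and 19 lower and 2, 5 and 0 higher entries. Of all entries 17%, 18.6% and 15.8% were lower on those days, so the counts of days 6 and 8 lay below that share.

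Counted gene by gene with edgeR's quasi-likelihood test, 64 of the 77 members were higher on day 1 than on day 0 and 5 were lower at a Benjamini-Hochberg adjusted p (Q) of 0.05 or less. Of all 17999 entries 25.4% were higher and 27.3% lower at that threshold. The large subunit had 42 of 48 members higher and 1 lower, with a median log2 fold change of 0.51. The small subunit had 22 of 29 higher and 4 lower, with a median of 0.57. More than 2-fold higher were 5 members, all MRPL, against 7.27% of all entries. The 8 members that passed in neither direction were MRPL16, MRPL39, MRPL42, MRPL44, MRPL45, MRPS14, MRPS17 and MRPS33. Of the 30 large subunit proteins with a bacterial counterpart 29 were higher and 0 lower, with a median of 0.53. The 18 mitochondria-specific ones had 13 higher and 1 lower, with a median of 0.43. In the small subunit 12 of 16 classed with a bacterial counterpart and 9 of 12 classed as mitochondria-specific were higher. Each class had 2 lower, and the medians were 0.62 and 0.46. MRPS18A and MRPS18B were placed in the second class, although they are paralogs of MRPS18C in the first.

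On day 2, 50 members were still higher than on day 0 and 2 were lower, where 23.2% and 24.4% of all entries were. The large subunit had 33 higher and the small 17, with medians of 0.37 and 0.24, and each had 1 lower. The excess of higher over lower members was smaller from then on. On day 4 there were 16 members higher and 10 lower against 19.0% and 20.1% of all entries. Day 6 had 14 higher and 20 lower against 17.5% and 17%. Day 8 had 15 and 12 against 18.2% and 18.6%, and day 10 had 15 and 8 against 16.1% and 15.8%. On day 6 the large subunit had 14 of 48 members lower (29.2%) and 5 higher. The small subunit had 6 of 29 lower (20.7%) and 9 higher. Without day 0 replicate 4 the members lower on day 6 were 13 in all. With library sizes taken without scaling factors, which gives higher values for the members after the pulse, the splits were 30 higher and 4 lower on day 4, 19 and 15 on day 6, and 19 and 5 on day 10.

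**Figure D2:**
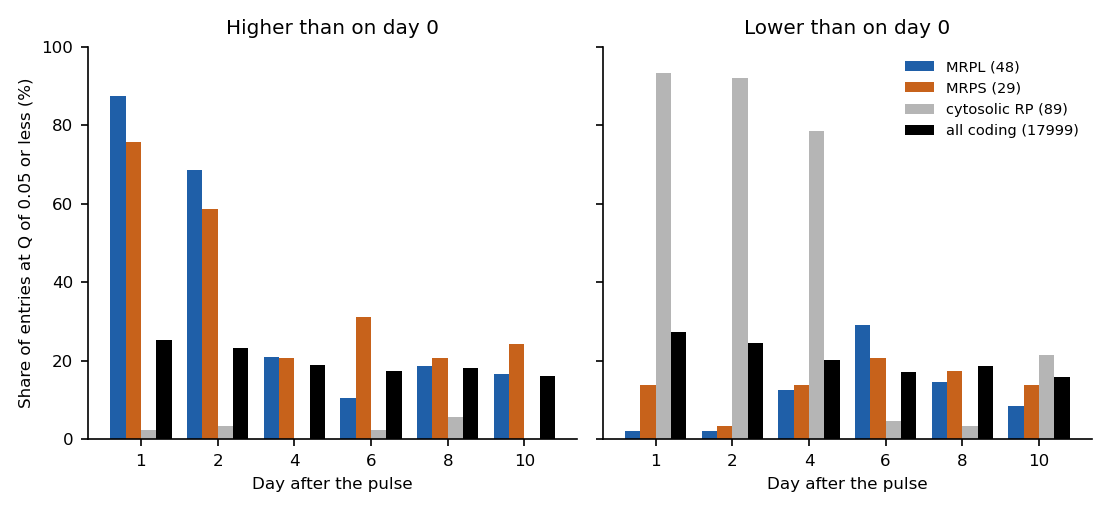
Share of entries (y axis, percent) higher (left) or lower (right) than on day 0 at Q of 0.05 or less, by day (x axis), for MRPL (blue), MRPS (orange), cytosolic ribosomal proteins (grey) and all protein-coding entries (black). On day 1 the higher share is 87.5% of MRPL and 75.9% of MRPS against 25.4% of all entries, and from day 4 on no bar of either subunit exceeds 31.03%.

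Between consecutive days the decline came in 2 steps. From day 1 to day 2, 38 members fell and 6 rose, beside 19.4% and 20.2% of all entries. From day 2 to day 4, 44 fell and 2 rose, beside 16.7% and 13.9%. In the first step 22 of 48 large and 16 of 29 small subunit members fell, and in the second 31 and 13. From day 4 to day 6, 8 fell and 3 rose, beside 5.98% and 6.09%. Scaling with RLE factors (relative log expression) in edgeR gave 10 and 2 in that step, and scaling without factors gave 22 and 2. From day 6 to day 8, 1 member rose and 0 fell, beside 1.03% and 1.53%, and that member was MRPL1. From day 8 to day 10, 4 rose and 2 fell, beside 5.08% and 4.97%, and with RLE factors 2 and 2. Leaving out single libraries moved the number of changed members between 0 and 3 from day 6 to day 8 and between 1 and 7 from day 8 to day 10.

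**Figure D3:**
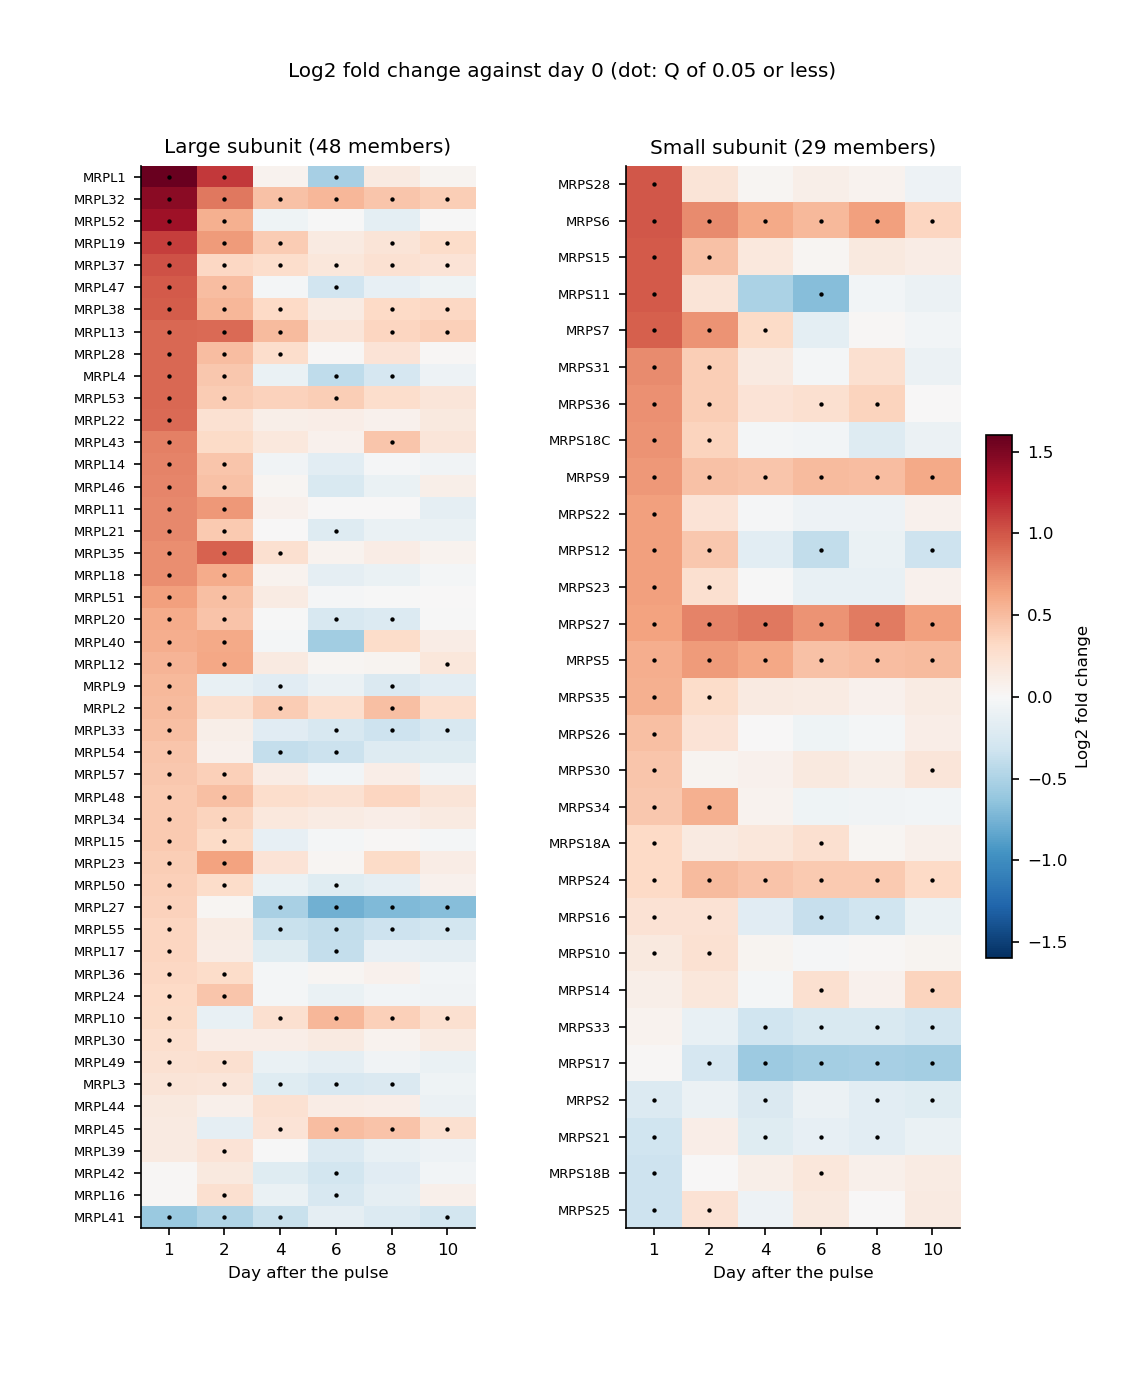
Log2 fold change against day 0 (colour, red higher and blue lower) of each member (rows, ordered by day 1 within the 48 MRPL and the 29 MRPS) on days 1, 2, 4, 6, 8 and 10 (columns), with a dot where Q is 0.05 or less. The day 1 column is red with a dot for 64 members, blue with a dot for 5 and without a dot for 8, and the columns from day 4 on are mostly pale, with stronger rows such as MRPS27, MRPS9 and MRPL32 (red throughout) or MRPL27 and MRPS17 (blue from day 4).

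The largest day 1 rise was that of MRPL1, the protein of the mobile stalk beside the exit site for tRNA. It had 7.45, 7.62, 8.94, 8.82 and 9.82 CPM in the 5 day 0 libraries and 21.2, 29.1, 24.6, 24.9 and 27.4 CPM on day 1. The groups did not overlap, and the log2 fold change was 1.58 ± 0.15 (SE, Q = 4.51e-12). Day 2 was still higher, by 1.13 ± 0.15 (Q = 3.29e-08). Day 4 gave 0.050 ± 0.16 (Q = 0.877), and day 6 lay below day 0 by -0.53 ± 0.17 (Q = 0.0134). On days 8 and 10 MRPL1 had 9.43 ± 2.58 and 8.79 ± 1.43 CPM (SD), beside 8.53 ± 0.987 CPM on day 0.

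MRPL52, a mitochondria-specific protein of the large subunit, had 13.8 to 20.2 CPM on day 0 and 42.9 to 48.7 CPM on day 1. Its log2 fold change was 1.36 ± 0.10 (SE, Q = 2.56e-15), and it then had the largest fall of the large subunit from day 1 to day 2, by -0.78 ± 0.094 (Q = 3.37e-09). By day 4 it was at 16.9 ± 2.47 CPM (SD), beside 17.7 ± 2.39 CPM on day 0. MRPL19, which has a bacterial counterpart, rose from 26.99 to 33.3 CPM in the day 0 libraries to 57.3 to 73.7 CPM on day 1 (log2 1.11 ± 0.071, Q = 3.61e-17). It was still higher on day 10, by 0.29 ± 0.074 (Q = 0.00200). MRPL37, a mitochondria-specific protein with no bacterial relative, completed the 5 members above 2-fold with 1.02 ± 0.049 (Q = 2.65e-21). Its range was 119 to 132 CPM on day 0 and 244 to 272 CPM on day 1.

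Among small subunit members with a mean log2 CPM of 3 or more, the 4 largest rises were close to each other. MRPS11, below that level, rose by 0.98, more than the last of them. MRPS28 went from 6.44 to 11.6 CPM on day 0 to 15.7 to 20.6 CPM on day 1 (log2 1.00 ± 0.16, Q = 5.73e-07). It returned within a day, falling by -0.79 ± 0.15 from day 1 to day 2 (Q = 2.60e-05). MRPS6 rose by 0.99 ± 0.12 (Q = 1.82e-09), MRPS15 by 0.99 ± 0.071 (Q = 1.05e-15) and MRPS7, a protein of the subunit's head, by 0.96 ± 0.087 (Q = 1.21e-12). MRPS15 lay at 61.6 to 67.4 CPM on day 0 and at 109 to 139 CPM on day 1, so its groups stood far apart. By day 6 MRPS15 and MRPS7 had 65.2 ± 8.08 and 31.7 ± 3.79 CPM (SD), beside 63.9 ± 2.36 and 35.5 ± 3.87 CPM on day 0.

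Only 5 members were lower on day 1. MRPL41, a mitochondria-specific protein of the large subunit, had 55.7, 44.9, 49.9, 40.7 and 49.9 CPM on day 0 and 29.7, 33.7, 29.3, 32.6 and 34.5 CPM on day 1. Every day 1 library lay below every day 0 library (log2 -0.60 ± 0.091, Q = 3.29e-07). It stayed lower on day 2 with -0.48 ± 0.089 (Q = 1.45e-05) and on day 4 with -0.36 ± 0.089 (Q = 0.00112). The lowering was not continuous. On day 6 MRPL41 had 37.1 to 49.5 CPM, which overlapped with day 0, and the day 8 difference of -0.22 did not pass. On day 10 it was lower by -0.29 ± 0.089 (Q = 0.00893), which missed the threshold without day 0 replicate 1 (-0.22). MRPS25, MRPS18B and MRPS21 fell on day 1 by -0.34 ± 0.099 (Q = 0.00377), -0.33 ± 0.073 (Q = 0.000189) and -0.32 ± 0.050 (Q = 5.18e-07). All 3 rose again by day 2, by 0.56 ± 0.097 (Q = 5.64e-06), 0.33 ± 0.072 (Q = 0.000184) and 0.43 ± 0.050 (Q = 1.50e-09), while most other members were falling. MRPS25 had 75.6 to 103 CPM on day 0, 61.2 to 82.9 on day 1 and 101.4 to 130 on day 2, so day 0 overlapped with both. The day 1 difference of MRPS25 was -0.22 without scaling factors and no longer passed. MRPS2 was the fifth, with -0.22 ± 0.063 (Q = 0.00234).

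The subunits were also compared by their sums. The ratio of summed large to small subunit CPM was 1.29 ± 0.0294 on day 0 (SD, n = 5) and 1.58 ± 0.0394 on day 1, where the 5 libraries lay between 1.51 and 1.61. It came back to 1.36 ± 0.0111 on day 2 and to 1.18 ± 0.0172 on day 6. The sums are not per length, so the size of the ratio says nothing about the number of transcripts, and only its course over the days is described. The sums, unlike the medians, moved apart on day 1. Much of this shift rested on the 5 members lower on that day. The 4 of them in the small subunit held 33.4% ± 1.319 of its sum on day 0 and 21.96% ± 0.5436 on day 1. Without the 5 members the ratio rose less, from 1.894 ± 0.02288 on day 0 to 2.002 ± 0.04411 on day 1. These members were picked by their day 1 values.

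**Figure D4:**
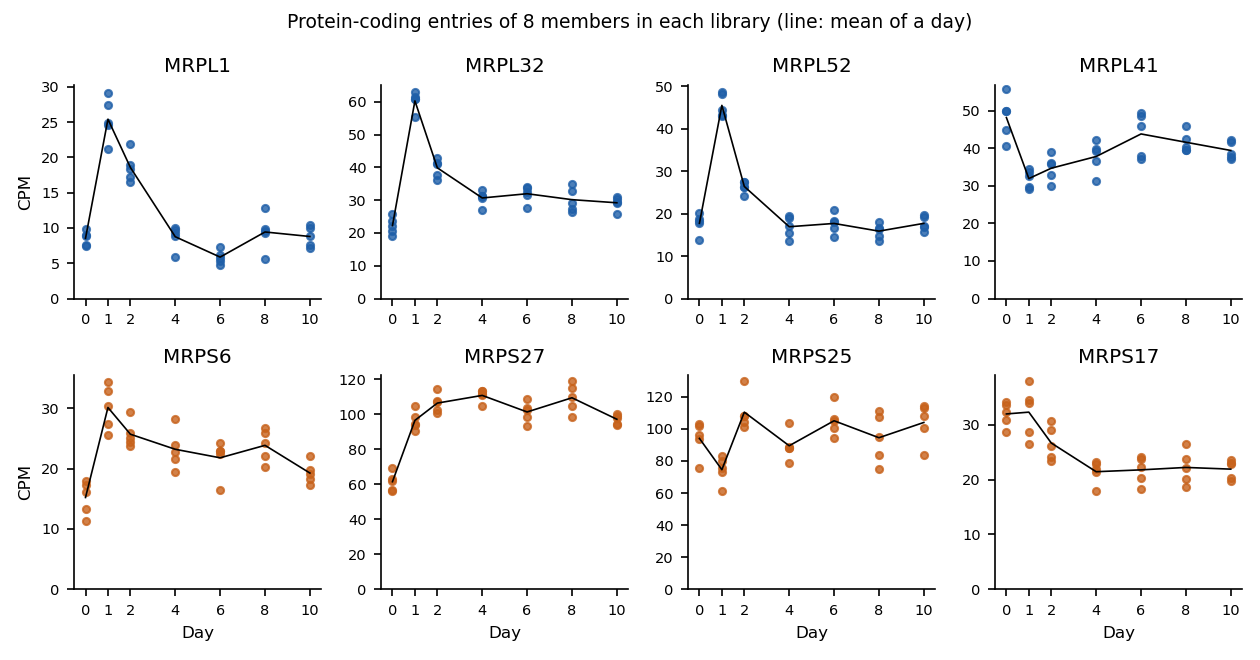
CPM (y axis, from 0) of the protein-coding entries of 8 members by day (x axis), with 1 point per library and a line through the mean of each day, MRPL in blue and MRPS in orange. MRPL1, MRPL32 and MRPL52 peak on day 1, MRPL41 and MRPS25 dip on day 1, the daily means of MRPS6 and MRPS27 stay above day 0 to day 10, and MRPS17 drops between day 1 and day 4 and stays low.

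Some members were called higher throughout. MRPS27, MRPS9, MRPS5, MRPS6, MRPS24, MRPL37 and MRPL32 were higher than on day 0 on all 6 later days, 5 of the 7 in the small subunit. Of all entries 6.72% met this pattern, so 7 of 77 is near the background. MRPS27, a protein with pentatricopeptide repeats, had 56.3 to 69.3 CPM on day 0, 90.7 to 105 on day 1 and 94.0 to 99.97 on day 10. Its highest fold change was on day 4, 0.85 ± 0.058 (SE, Q = 8.29e-16), and day 10 gave 0.66 ± 0.058 (Q = 3.28e-12). Its highest daily mean thus fell on day 4, not on day 1. MRPS9 stood at 47.2 to 56.3 CPM on day 0 and at 73.9 to 83.8 CPM on day 10, by 0.61 ± 0.054 higher (Q = 3.27e-12). MRPS5 and MRPS24, 2 more proteins with bacterial counterparts, were higher on day 10 by 0.50 ± 0.071 (Q = 2.11e-07) and 0.32 ± 0.088 (Q = 0.00346). The day 10 value of MRPS6 was 0.34 ± 0.12 (Q = 0.0272). It missed the threshold without day 0 replicate 1 (0.31), without day 0 replicate 5 (0.28) or without day 10 replicate 2 (0.29), and with all transcript classes of the gene summed it was 0.14. In the large subunit MRPL32 and MRPL13 were the highest on day 10, with 0.40 ± 0.088 (Q = 0.000336) and 0.38 ± 0.077 (Q = 0.000104). For MRPL32 the day 10 value was -0.36 with all transcript classes of the gene summed, the opposite sign. MRPL13 had risen by 0.92 ± 0.075 on day 1 and by 0.90 ± 0.074 on day 2.

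Others ended lower than they had started. MRPL27, MRPL55, MRPS17 and MRPS33 were below day 0 on each of days 4, 6, 8 and 10, a pattern met by 10.8% of all entries. MRPL27, which lies near the peptidyl transferase centre, first rose by 0.36 ± 0.096 on day 1 (Q = 0.00122). It had 22.9 to 28.7 CPM on day 0 and 14.2 to 20.0 CPM on day 10, without overlap (log2 -0.68 ± 0.10, Q = 8.28e-07). MRPS17 had 28.8 to 34.3 CPM on day 0, and 26.5 to 38.1 CPM on day 1 with 0.015 ± 0.10 (Q = 0.966). From day 4 on its daily means were between 21.5 and 22.2 CPM, and day 10 was lower by -0.54 ± 0.10 (Q = 4.60e-05). MRPS12, a protein of the decoding centre, rose by 0.66 ± 0.089 on day 1 (Q = 2.93e-08) and was below day 0 by -0.34 ± 0.094 on day 10 (Q = 0.00455). Its CPM were 32.1 to 34.3 on day 0, 45.5 to 57.8 on day 1 and 23.99 to 30.3 on day 10. MRPL37, MRPL45, MRPL55, MRPS2, MRPS5, MRPS24 and MRPS33 were named after their values were seen. In all, 16 members were higher on day 1 and lower on at least 1 later day, 13 of them in the large subunit, beside 27 that were higher on day 1 and passed on none of days 4 to 10. Of all entries 5.14% and 7.01% met these patterns. Both patterns require a rise on day 1, which is more frequent among the members. Of the 4570 entries higher on day 1, 925 and 1262 met them, beside 16 and 27 of the 64 members higher on day 1.

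The 2 proteins of the flexible stalk, to which the translation factors bind, did not follow the same course. MRPL12 rose by 0.55 ± 0.063 on day 1 (Q = 5.60e-10) and by 0.62 ± 0.062 on day 2 (Q = 1.85e-11), and had 85.5 ± 4.95 CPM on day 6 beside 83.8 ± 6.32 on day 0 (SD). MRPL10 went from 42.1 ± 2.43 to 52.3 ± 2.55 CPM on day 1 and back to 38.9 ± 4.88 on day 2, a fall of -0.42 ± 0.073 between the days (Q = 5.67e-06). It then climbed to 61.0 ± 3.14 CPM on day 6, higher than day 0 by 0.53 ± 0.073 (Q = 1.06e-07). MRPL45, a protein that helps to hold the ribosome at the inner membrane, had similar values on days 2 and 6. They were -0.14 ± 0.076 on day 2 (Q = 0.141) and 0.49 ± 0.075 on day 6 (Q = 7.83e-07). Its day 1 change did not pass, with 48.1 to 58.7 CPM beside 43.9 to 52.9 CPM on day 0.

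The 3 paralogs MRPS18A, MRPS18B and MRPS18C differed on day 1. MRPS18C rose by 0.72 ± 0.10 (Q = 7.45e-08), from 18.4 to 24.5 CPM on day 0 to 29.8 to 38.6 CPM on day 1. MRPS18A, the paralog in the large subunit, rose by 0.32 ± 0.080 (Q = 0.000681). MRPS18B fell by -0.33 as given above, from 118 to 143 CPM on day 0 to 87.6 to 119 CPM on day 1, with a narrow overlap. MRPS30, the other large subunit protein with an MRPS symbol, rose by 0.44 ± 0.067 (Q = 2.55e-07), and MRPS36 by 0.73 ± 0.10 (Q = 4.68e-08). MRPL18, which has a bacterial counterpart that binds 5S rRNA, rose by 0.74 ± 0.067 (Q = 1.03e-12). MRPL16 and MRPL42 were the lowest of the large subunit on day 1 after MRPL41, with 0.014 ± 0.072 (Q = 0.929) and 0.024 ± 0.094 (Q = 0.889). MRPL23, near the polypeptide exit, had the highest value of the large subunit from day 1 to day 2, 0.25 ± 0.13 (Q = 0.147), but its day 1 libraries were scattered from 28.2 to 49.1 CPM.

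Subunits of the mitochondrial ribosome with other symbols were counted apart. DAP3, AURKAIP1, CHCHD1 and GADD45GIP1 were higher on day 1, 4 of 6, where 25.4% of all entries were higher and 27.3% lower. These shares hold for the lists that follow too. DAP3, a GTP-binding protein of the small subunit, went from 176 ± 10.5 to 334 ± 11.9 CPM (SD; log2 0.92 ± 0.053 SE, Q = 8.24e-19) and was lower than day 0 by -0.31 ± 0.054 on day 2 (Q = 3.76e-06). PTCD3, a small subunit protein with pentatricopeptide repeats, gave -0.0044 ± 0.059 (Q = 1.0) on day 1, and ICT1, the older symbol of MRPL58, gave 0.20 ± 0.098 (Q = 0.0924). Of 16 mitochondrial translation factors and tRNA-modifying enzymes 7 were higher and 0 lower on day 1. TRMU, which thiolates mitochondrial tRNAs, rose from 5.96 ± 2.06 to 35.5 ± 5.07 CPM, by 2.56 ± 0.20 (Q = 3.10e-14), and GUF1, an elongation factor, gave -0.40 ± 0.20 (Q = 0.0978). Of 30 assembly and rRNA factors 16 were higher and 6 lower, the latter below the share of all entries. C14orf156, the older symbol of SLIRP, a stabiliser of mitochondrial mRNAs, rose by 1.40 ± 0.098 (Q = 4.54e-16), and NGRN, a binder of the large rRNA, fell by -0.80 ± 0.16 (Q = 5.26e-05). The rRNA reads themselves moved apart. MT-RNR1, the small rRNA, took 890 ± 123 CPM of all counts on day 0 and 1558 ± 336 on day 1 (SD, n = 5), whereas MT-RNR2, the large rRNA, had 9484 ± 1299 and 6984 ± 515. How rRNA was treated in the library preparation is not given in the sources used here, and these 2 differences were not tested.

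The symbols of the members also carry counts in entries of other transcript classes, which the deposited table keeps apart. Of the counts under the 77 symbols 87.4% ± 1.10 were protein coding on day 0 and 90.1% ± 0.581 on day 1 (SD, n = 5). The retained intron class went from 5.40% ± 0.496 to 3.96% ± 0.290. Over all symbols with a protein-coding entry it went from 7.598% ± 0.638 to 5.29% ± 0.462. In a fit of all 65717 entries with a count, 8.18% were higher and 15% lower on day 1. Of the members' 39 retained intron entries 3 were higher and 6 lower, of 23 nonsense-mediated decay entries 5 were higher and 1 lower, and of 39 processed transcript entries 2 were higher and 3 lower.

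Some of these entries moved against the coding entry of the same gene. The coding entry of MRPL32, whose protein is cut to its mature form by the m-AAA protease after import, had 20.5, 19.0, 25.9, 23.7 and 22.1 CPM on day 0 and 55.4, 60.9, 60.8, 63.1 and 61.4 CPM on day 1. It rose by 1.44 ± 0.084 (SE, Q = 1.16e-18) and was still higher by 0.40 on day 10. The nonsense-mediated decay entry of MRPL32 had 40.6, 44.1, 43.8, 28.3 and 38.1 CPM on day 0 and 7.94, 11.3, 10.8, 9.09 and 13.0 CPM on day 1. It fell by -1.90 ± 0.20 (Q = 2.24e-10) and stayed lower on day 10, by -1.21 ± 0.19 (Q = 6.80e-06). On day 0 it therefore held more of the gene's reads than the coding entry did, and on every later day fewer. With all classes of MRPL32 summed, day 2 and day 10 came out at -0.16 and -0.36, the opposite sign of the coding entry. The pattern was reversed in MRPS25, whose coding entry fell on day 1 while its nonsense-mediated decay entry rose from 6.04 ± 2.09 to 13.0 ± 3.78 CPM (log2 1.12 ± 0.23, Q = 0.000154). With all classes summed, the day 1 difference of MRPS25 was -0.14 and no longer passed. MRPS14 showed no passing change in its coding entry on day 1 (0.097 ± 0.10, Q = 0.434), and its nonsense-mediated decay entry rose by 1.34 ± 0.19 (Q = 2.12e-07). In MRPS7 and MRPL11 the same class rose together with the coding entry, by 1.43 ± 0.24 (Q = 4.85e-06) and 0.77 ± 0.14 (Q = 1.69e-05). MRPL11 and MRPS14 were named after their values were seen. Counts of overlapping transcripts of a gene are estimates, and how reads were divided among them was not tested.

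**Figure D5:**
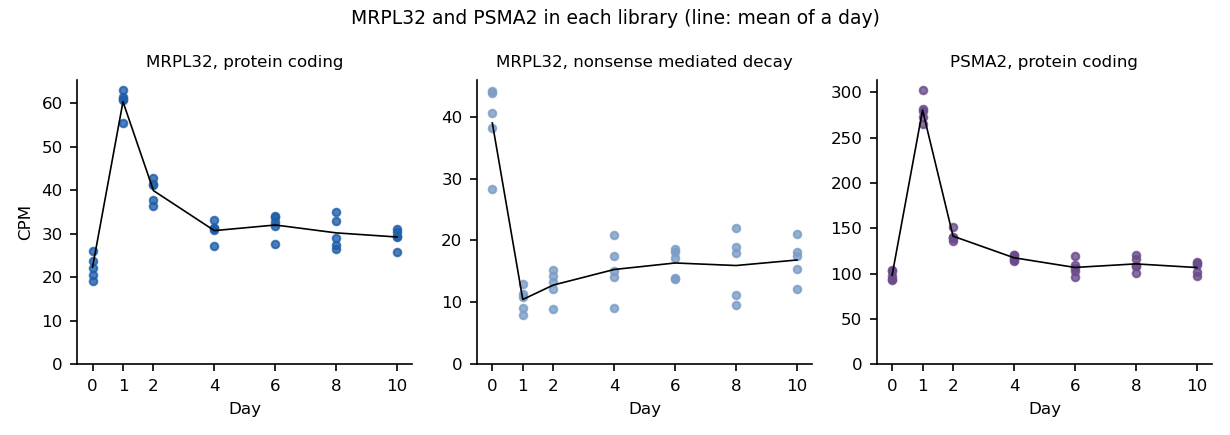
CPM (y axes, from 0, each panel on its own scale) by day (x axis) of the protein-coding entry of MRPL32, its nonsense-mediated decay entry and the protein-coding entry of PSMA2, with 1 point per library and a line through the mean of each day. Both coding entries peak on day 1, with means of 60.3 and 280 CPM, while the nonsense-mediated decay entry drops from 39.0 to 10.4 CPM.

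Many of the genes share a promoter region with a gene on the other strand. RefSeq starts (GRCh38.p14) were given for 68 members, and for 26 of these (38.2%) a gene on the opposite strand starts within 1000 bases upstream, beside 21.1% of the 13348 entries with a start. It was 14 of 41 in the large and 12 of 27 in the small subunit, and 21 of 71 (29.6%) among the cytosolic ribosomal proteins. For 18 of the 26 the neighbour was itself among the entries tested, and 9 of these neighbours were higher and 2 lower on day 1, beside 25.4% and 27.3% of all entries. The 9 include MRPL46 and MRPS11, which count as each other's neighbour. MRPL32 starts 202 bases from PSMA2, a subunit of the 20S proteasome core. PSMA2 rose from 98.1 ± 5.12 to 280 ± 14.2 CPM on day 1 (SD; log2 1.52 ± 0.055 SE, Q = 2.71e-25). The coding entry of MRPL32 rose by 1.44, while its nonsense-mediated decay entry fell by -1.90, so the gene as a whole rose less. On day 2 PSMA2 was at 0.53 ± 0.056 (Q = 9.10e-11) and on day 10 at 0.12 ± 0.057 (Q = 0.102). On these days the coding entry of MRPL32 had 0.85 and 0.40, and all its classes summed had -0.16 and -0.36. MRPL18 starts 210 bases from TCP1, a subunit of the TRiC chaperonin, which rose by 0.82 ± 0.048 (Q = 1.88e-18) beside 0.74 for MRPL18. MRPS12 starts 181 bases from SARS2, the mitochondrial seryl-tRNA synthetase, which rose by 0.99 ± 0.14 (Q = 1.62e-07) beside 0.66. MRPL46 and MRPS11 are neighbours of each other, 320 bases apart, and rose by 0.78 ± 0.14 (Q = 5.20e-06) and 0.98 ± 0.23 (Q = 0.000356). The pairs described were chosen after their values were seen. Other pairs parted. MRPL49 starts 49 bases from FAU, which encodes a cytosolic ribosomal protein, and MRPL49 rose by 0.24 ± 0.079 (Q = 0.00922) while FAU fell by -0.35 ± 0.063 (Q = 7.30e-06). MRPL37, 137 bases from CYB5RL, rose by 1.02 where CYB5RL gave 0.058 ± 0.12 (Q = 0.724).

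The promoters were searched for 6 motifs on both strands, from 250 bases before to 50 bases after the RefSeq start. AAGATGGCG, the YY1 motif, was in 13 of 68 member promoters (19.1%), 8 of 41 large and 5 of 27 small, and in 3.04% of the 13348 promoters of all entries tested. CCGGAAG, the core of the ETS family, was in 28 (41.2%) beside 15.3%. GCATGCGC, part of the NRF1 motif, was in 6 (8.82%) beside 4.60%, and CACGTG, the E-box, in 6 (8.82%) beside 9.22%. TGACNNNGC, the core of the antioxidant response element, was in 8 (11.8%) beside 14.6%, and TGATGCAAT, the CARE, in 0 beside 0.157%. Of 71 promoters of cytosolic ribosomal proteins 8.45% held the YY1 motif and 32.4% the ETS core, between the members and all entries. A match describes letters only and is no evidence of binding. No YY1 match overlapped an ETS match in the members. The YY1 motif contains ATG, and in 9 of the 13 genes that ATG is an annotated start codon in GENCODE v44. In MRPL32 the match lies at -223 on the other strand, on which PSMA2 starts 202 bases from MRPL32. Whether that match is part of the coding start of PSMA2 was not tested. Members with and without the YY1 motif had median day 1 fold changes of 0.38 and 0.55, with 11 of 13 and 44 of 55 higher. For the ETS core the medians were 0.53 and 0.48, with 25 of 28 and 30 of 40 higher.

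The stretches around the YY1 motif are shown because members of both subunits hold this motif, in 19.1% of their promoters beside 3.04% of all. Among the promoters of cytosolic ribosomal proteins the share was 8.45%, so the motif is not particular to the members. Each line gives 10 bases to either side where the window allows, in the direction of the gene (GRCh38.p14), with the motif in capitals. In MRPL32 and MRPL36 the motif lies on the other strand and reads CGCCATCTT, and MRPL52 has it in 2 places.
MRPL22, chr5:154941098-154941122, plus strand: gggagggcgaAAGATGGCGgcggca
MRPL32, chr7:42932143-42932171, plus strand: acccgcgctcCGCCATCTTtacccgaaga
MRPL36, chr5:1799855-1799883, minus strand: ccccccccgcCGCCATCTTccttcctggc
MRPL38, chr17:75904860-75904888, minus strand: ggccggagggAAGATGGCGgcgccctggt
MRPL42, chr12:93467512-93467540, plus strand: ggattgaaacAAGATGGCGggttcgtggt
MRPL46, chr15:88467362-88467390, minus strand: gggagaacgaAAGATGGCGgcgcccgtaa
MRPL50, chr9:101398577-101398605, minus strand: gatctcatcgAAGATGGCGgcgcgatctg
MRPL52, chr14:22829779-22829807, plus strand: acgatgacccAAGATGGCGgagccgtgat
MRPL52, chr14:22829813-22829841, plus strand: acccagattcAAGATGGCGacttcctgct
MRPS10, chr6:42217834-42217862, minus strand: cgggaccggcAAGATGGCGgcgcggacag
MRPS18A, chr6:43687764-43687792, minus strand: taggtttttgAAGATGGCGgccctcaagg
MRPS18B, chr6:30617853-30617881, plus strand: ggcgtacgtcAAGATGGCGgcgtctgtat
MRPS24, chr7:43869480-43869508, minus strand: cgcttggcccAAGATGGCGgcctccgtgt
MRPS30, chr5:44808950-44808978, plus strand: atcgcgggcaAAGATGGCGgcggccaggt

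The group spans the course from MRPL32 and MRPL52, with day 1 rises of 1.44 and 1.36, to MRPL42, with 0.024, and MRPS18B, which fell by -0.33. Measured from the start as base 1, the motif begins between bases 7 and 36 in 10 of the 14 places.

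The member with the largest rise and the member with the largest fall on day 1 held none of the 6 motifs. This was common: 22 of the 68 member promoters held none, with 17 of these members higher and 3 lower on day 1. The 250 bases before the start of MRPL1 and of MRPL41 are printed because these 2 genes are the ends of the day 1 order in the large subunit. That of MRPL1 is 49.2% G and C with 15 CG pairs, and that of MRPL41 is 82.8% with 43, where the 68 members had a median of 60.4%. The same holds in the small subunit in the other direction, with 84.8% for MRPS6, the highest on day 1 with a RefSeq promoter, and 54.4% for MRPS25, the lowest. None of the 4 held any of the motifs, so no letters are capitalised.
MRPL1, chr4:77862580-77862829, plus strand: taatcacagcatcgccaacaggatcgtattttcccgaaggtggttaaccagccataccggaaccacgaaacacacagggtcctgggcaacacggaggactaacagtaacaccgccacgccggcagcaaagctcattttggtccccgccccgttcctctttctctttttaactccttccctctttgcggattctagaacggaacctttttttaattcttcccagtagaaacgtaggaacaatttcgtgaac
MRPL41, chr9:137551629-137551878, plus strand: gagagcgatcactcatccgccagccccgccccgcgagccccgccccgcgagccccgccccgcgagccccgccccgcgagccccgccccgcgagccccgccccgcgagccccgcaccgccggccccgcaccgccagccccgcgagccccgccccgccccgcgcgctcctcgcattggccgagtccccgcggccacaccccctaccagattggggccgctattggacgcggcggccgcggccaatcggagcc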

How the data were processed

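RNA was sequenced from 5 subcultures of RPMI-8226 cells on each of 7 days. The deposited values are estimated counts in whole numbers, which the authors made with Kallisto 0.44.0 against GENCODE transcripts (GRCh38.p12), corrected for GC bias and adjusted for transcript length, per symbol and transcript class. The table holds 84647 entries, 19665 of them protein coding, and the depth was 6519392 to 10962890 counts per library.

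From these, the 17999 protein-coding entries with a count were fitted with edgeR 4.0.16 (R 4.3.3, quasi-likelihood test, TMM factors, day as factor, all 35 libraries), with Benjamini-Hochberg adjustment over all of them and a threshold of 0.05. The SE was derived from the fold change and its F value. Log2 CPM used a prior count of 2. DESeq2 1.42.0 and other scalings, filters and left-out libraries were alternatives. The test was checked on simulated data. Members were named by extreme fold changes on days 1 and 10 and from day 1 to day 2, in each subunit, among those with a mean log2 CPM of 3 or more, plus a fixed set. MRPL58 is listed as ICT1. The members and lists were chosen with earlier results of these data known. Other transcript classes, neighbours and YY1 stretches were added after the data had been seen.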

Additional observations from a re-analysis of the deposited data

Results flagged for a closer look

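In 13 of 217 groups of 5 libraries tested, 1 library stood apart from the other 4 by more than Dixon's critical value of 0.71, and chance flags about 1 in 20 groups. The library was below the others for MRPL1 on day 4 (replicate 5, 5.87 CPM, nearest 8.91), MRPL16 on day 1 (replicate 1, 28.8 CPM, nearest 31.8) and MRPS6 on day 6 (replicate 4, 16.4 CPM, nearest 22.4). It was also below for MRPS7 on day 0 (replicate 2, 28.6 CPM, nearest 36.8), MRPS27 on day 4 (replicate 5, 105.0 CPM, nearest 110.9), MRPL18 on day 10 (replicate 1, 38.3 CPM, nearest 51.0) and MRPS36 on day 1 (replicate 1, 23.96 CPM, nearest 28.8). The library was above the others for MRPL19 on day 10 (replicate 4, 41.0 CPM, nearest 35.4), MRPL13 on day 10 (replicate 4, 43.9 CPM, nearest 39.2) and MRPL23 on day 8 (replicate 5, 47.5 CPM, nearest 34.8). It was also above for MRPS25 on day 2 (replicate 4, 130.2 CPM, nearest 108.4) and MRPS18B on day 10 (replicate 2, 165.1 CPM, nearest 146.0). The ratio of summed large to small subunit CPM on day 1 was lowest in replicate 3, at 1.51, with the nearest at 1.58.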

How the results depend on the processing

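The numbers of members called kept within 1.5 times of the reported number in 104 of 119 values under other settings and in 158 of 170 with a library left out, and the subunit values moved by less than 1 SD in 130 of 144 and 180 of 180. Without scaling factors, 3 members were lower on day 1 and 1 on day 2. Day 4 then had 30 higher and 4 lower members, day 10 had 5 lower, and 24 changed between days 4 and 6. The large subunit medians were then 0.65, 0.49, 0.16 and 0.080 on days 1, 2, 4 and 10, and the small subunit medians 0.63, 0.43, 0.17 and 0.13. With all transcript classes summed, 4 members were lower on day 2, 25 higher on day 4 and 3 changed from day 6 to day 8. The small subunit median was then 0.59 on day 1 and 0.36 on day 2, the large minus small difference was -0.074 and -0.016, and MRPL32 had the opposite sign on day 2 (-0.16) and day 10 (-0.36). With means over members, the small subunit was at 0.44 on day 1 and the difference at 0.14. With only the libraries of the days compared, 5 members were lower on day 10, 0 changed between days 6 and 8, and 1 between days 8 and 10. For days 6 to 8, filterByExpr gave 3 and DESeq2 gave 2. The cause of these changes was not tested.

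Leaving out single libraries gave 1 to 3 members lower on day 2, 13 to 19 lower on day 6, 0 to 3 changed between days 6 and 8, and 1 to 7 between days 8 and 10. Of the named members' values 820 of 840 stayed on the same side of the threshold with a library left out, and 562 of 588 under other settings.

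With the replicate number as a block (replicate block), 2 members changed from day 6 to day 8. Libraries with the same number deviated together in 16 of 105 pairs (r over 0.1). The median r was 0.022, beside 0.00075 for libraries with different numbers. Of 35 libraries 18 correlated best with their own number, more than an equal spread over the 5 numbers would give. These correlations are small and do not decide whether a number marks a single subculture followed over the days. The main fit holds no block, so any pairing of the samples is left out of it.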
